A study of Homo sapiens with 10 samples.

Results

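The lysosome's enzymes and membrane proteins were examined as 47 genes among the 61587 rows of a gene count table from human renal tubular cells, with 5 irradiated and 5 control samples. The 47 genes were chosen by symbol, each matched by its Ensembl identifier, and the rule uses no measured value. They fall into 7 role groups, namely membrane proteins (8 genes), cathepsins (8), glycosidases (12), sulfatases (4), lipid and other hydrolases and cofactors (8), proton pump subunits (5) and transcription factors (2). All 47 had at least 200 counts over the 10 samples, the minimum for testing, and were among the 19006 genes tested.

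The cells were RPTEC/TERT1, a human proximal tubular epithelial line immortalised by telomerase. Irradiated cells received 10 Gy of gamma rays, and control cells were carried to the irradiator without exposure. RNA from both groups was collected 7 days later, and bulk RNA-seq was performed on poly-A RNA. Replicates 1 to 5 carry the same numbers in both groups, so each irradiated sample was compared with the control of its number. The sources used here do not say whether the replicates were grown as separate cultures, and p-values measure only the spread between these samples. In a bulk sample, a change in the share of cells and a change in RNA per cell cannot be told apart. Control replicate 3 stood apart from the other controls for these genes, and results that rest on it are given with and without replicate 3.

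Lysosomes are acidic organelles in which proteins, glycans, sulfated polymers and lipids are broken down by hydrolases, most of which are carried there on mannose 6-phosphate tags. A proton-pumping ATPase (V-ATPase) keeps the lumen acidic, and heavily glycosylated membrane proteins such as LAMP1 and LAMP2 line it. The transcription factors TFEB and TFE3 bind E-box letters in promoters of many lysosomal genes, a set known as the CLEAR network. Tubular epithelium takes up filtered protein and degrades it in lysosomes, and raised activity of the GLB1 product, lysosomal β-galactosidase, is the basis of a stain widely used for senescent cells.

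The E-box letters were looked for in the promoters because TFEB and TFE3 are known to recognise them. RefSeq promoter windows (GRCh38.p14, 250 bases before to 50 after the annotated start) were held for 34 of the 47 genes. A single window was used for each of the 34 genes, while the share over all windows counts every window held. The letters CACGTG, which read the same on both strands, were in the windows of 9 of the 34 genes (26.5%), against 7.26% of all 35116 windows. The longer form TCACGTG, which contains CACGTG and was searched on both strands, was in 8 of the 34 (23.5%), against 3.71% of all windows. It was in the windows of LAMP1, MCOLN1, CLN3, CTSA, CTSD, GAA, NEU1 and ATP6V0D1, and CD63 held the shorter form alone.

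Stretches upstream of the start are shown for 3 genes that were lower after irradiation (MCOLN1, CTSA and CTSD), the only 1 of the 8 that was higher (NEU1) and 2 that did not pass the test (LAMP1 and ATP6V0D1). They lie at chr19:7522563-7522623 on the plus strand for MCOLN1, chr20:45891273-45891334 on the plus strand for CTSA, chr11:1763949-1763994 on the minus strand for CTSD, chr6:31862922-31862967 on the minus strand for NEU1, chr13:113297191-113297236 on the plus strand for LAMP1 and chr16:67481191-67481236 on the minus strand for ATP6V0D1. Each is written 5′ to 3′ on the strand of the gene, with capitals for the matched letters.
MCOLN1: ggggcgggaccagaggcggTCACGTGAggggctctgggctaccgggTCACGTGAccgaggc
CTSA: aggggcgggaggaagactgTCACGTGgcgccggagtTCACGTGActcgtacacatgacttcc
CTSD: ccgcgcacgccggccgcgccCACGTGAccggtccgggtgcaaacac
NEU1: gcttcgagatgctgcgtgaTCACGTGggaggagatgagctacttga
LAMP1: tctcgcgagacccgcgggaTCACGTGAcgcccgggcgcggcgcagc
ATP6V0D1: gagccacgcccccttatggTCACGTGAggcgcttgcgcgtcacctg
MCOLN1 and CTSA carried 2 matches each in the window, CTSD, NEU1 and ATP6V0D1 carried 1 each, and LAMP1 carried 6, of which 5 lie before the start and 1 is in the stretch shown. Genes that carried the letters thus included some that were higher, some that were lower and some not past the threshold. The 8 genes with TCACGTG had a median log2 fold change of -0.20 (1 higher, 3 lower, 4 not past the threshold). The 26 without it had a median of -0.02 (10 higher, 6 lower, 10 not past the threshold). Over all genes tested, 23.9% were higher and 22.7% lower. A match describes the letters in the window and is not a measured binding site.

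After irradiation the lysosomal genes did not move as one. In the quasi-likelihood test of edgeR, with p-values adjusted (Benjamini-Hochberg) over all genes tested, 16 of the 47 genes were higher (all genes: 23.9%) and 10 were lower (all genes: 22.7%), while 21 did not pass the threshold of 0.05. The median log2 fold change over the 47 was -0.01, the same as over all genes tested (-0.01), and the values ran from -0.93 for TFEB to 0.93 for CTSS, so that none exceeded 2-fold. In 7 genes every irradiated sample lay above every control sample (all genes: 14.6%), and in 3 every irradiated sample lay below (all genes: 12.0%). The count of lower genes moved with single replicates, and was 6 without replicate 3 (all genes: 22.1%), 6 without replicate 4 (all genes: 16.3%) and 4 without replicate 5 (all genes: 16.1%). With no replicate block, 10 genes were higher (all genes: 19.2%) and 5 lower (all genes: 17.7%). Scaling by library size alone gave 14 higher (all genes: 19.0%) and 20 lower (all genes: 31.0%).

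**Figure D1:**
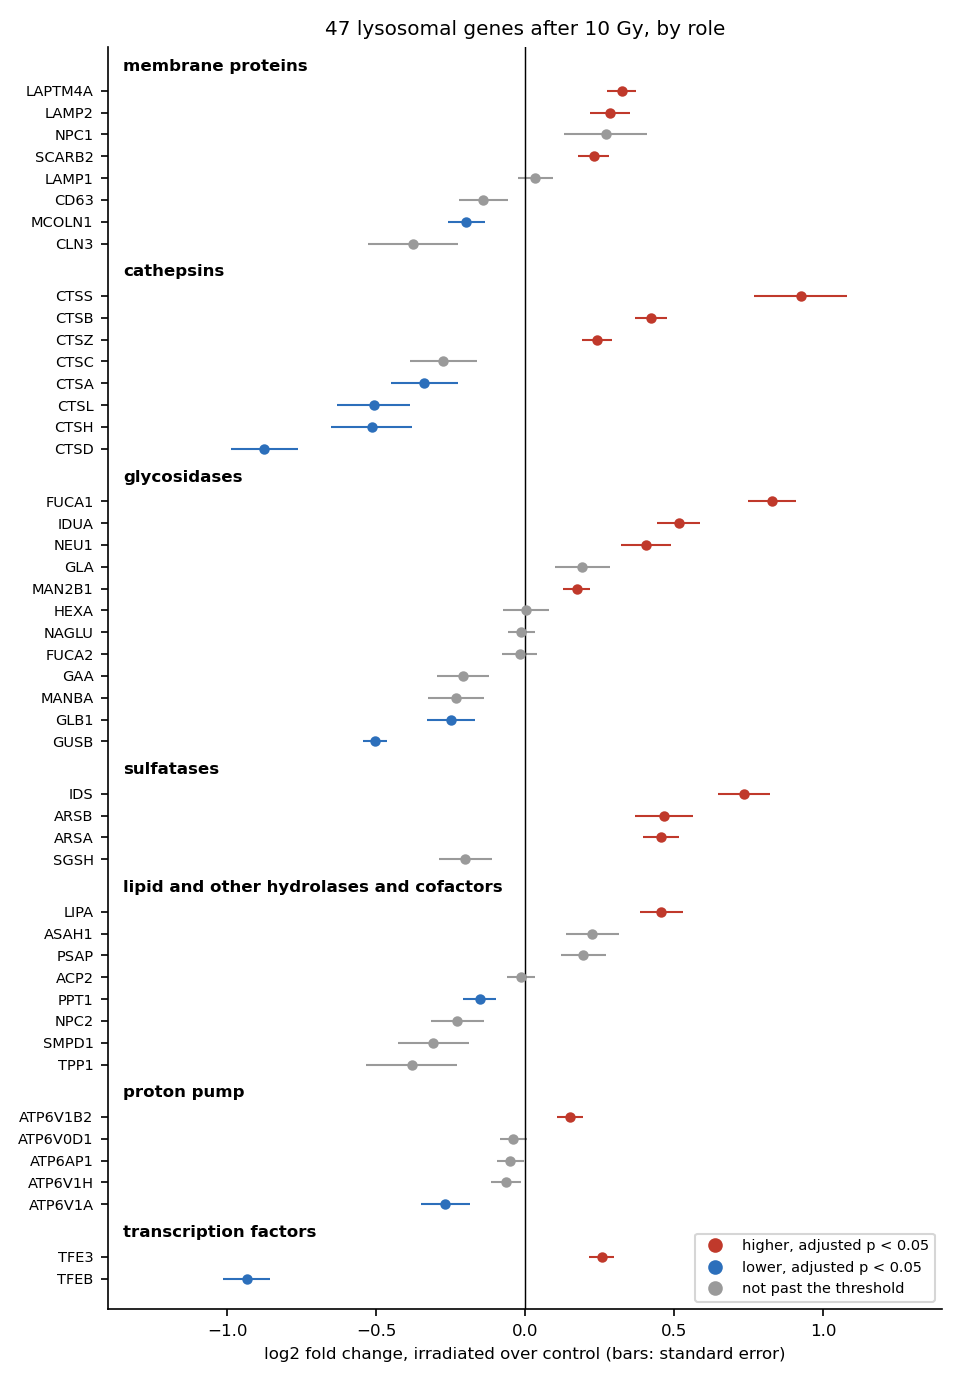
Log2 fold change of irradiated over control samples (x axis) with its standard error for the 47 genes (y axis, grouped by role), coloured by edgeR call at an adjusted p of 0.05. Cathepsins spread from -0.88 (CTSD) to 0.93 (CTSS), while the 5 proton pump subunits shown stay between -0.27 and 0.15.

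The summed level of the 47 genes differed between samples of a group as well as between groups. In CPM (counts scaled to library size with TMM factors), the sum was 7035, 7064, 9688, 6538 and 7127 in control replicates 1 to 5 and 7445, 8014, 8457, 7350 and 7342 in irradiated replicates 1 to 5. The group means were 7490 ± 1251 CPM and 7722 ± 496 CPM (SD, n = 5). Control replicate 3 had the highest sum of all 10 samples, and each of the other 4 controls lay below every irradiated sample. The sum is led by a few abundant transcripts. Per kilobase of exon, the highest control means were those of CD63 (670 CPM per kb), a tetraspanin of late endosomes, PSAP (525), the precursor of the saposin cofactors, and LAPTM4A (338), a membrane protein of late endosomes and lysosomes. The lowest were HEXA (4.34 CPM per kb), a subunit of β-hexosaminidase, and the protease gene CTSS (6.41). CLN3, CTSD and IDS were left out of this order of 44 genes because most of their exon bases are shared with another annotated gene.

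**Figure D2:**
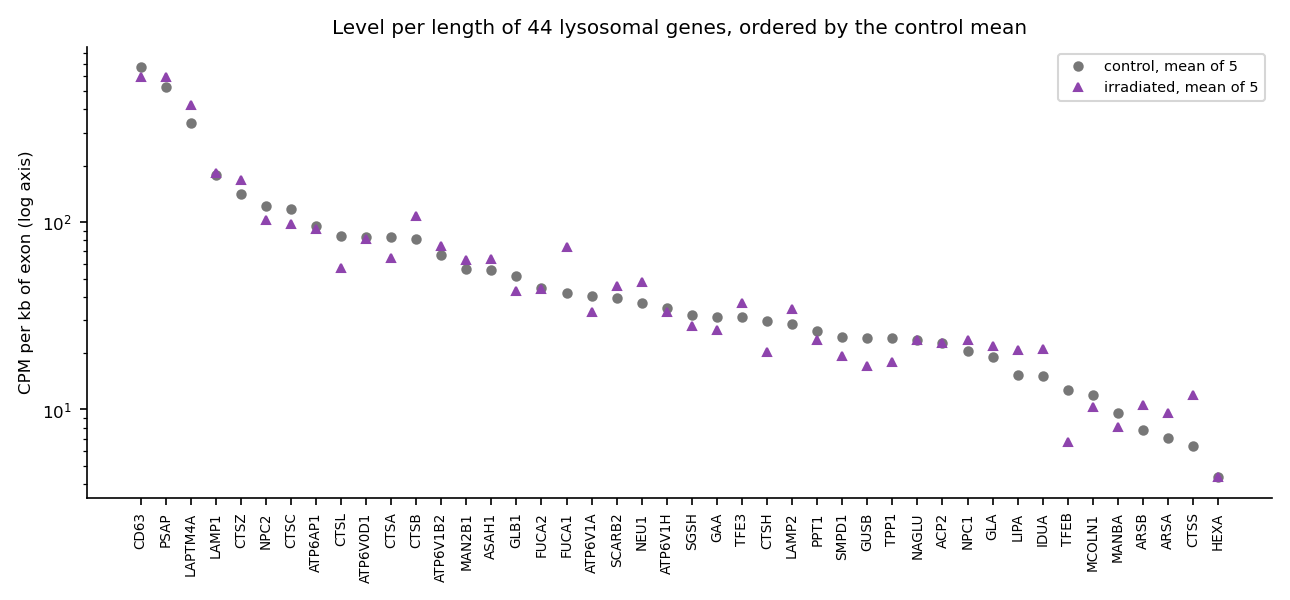
Mean CPM per kilobase of unshared exon (log axis) in control and irradiated samples for 44 genes, ordered along the x axis by the control mean. The order spans from 670 for CD63 to 4.34 for HEXA, and TFEB, CTSS and FUCA1 show wide gaps between the groups.

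The 2 transcription factors went in opposite directions. TFEB (chr6:41683978-41736259, minus strand; GENCODE annotation of GRCh38) was at 30.5, 32.7, 31.0, 27.3 and 26.7 CPM in control replicates 1 to 5 and 15.1, 20.4, 13.3, 14.5 and 14.9 CPM in irradiated replicates 1 to 5. Every irradiated sample was below every control sample, with irradiated replicate 2 the highest of its group. TFEB had a log2 fold change of -0.93 ± 0.08, adjusted p = 9.63e-05 (SE; edgeR), lower in 5 of 5 pairs. TFE3 (chrX:49028726-49043410, minus strand) was at 106, 94.0, 114, 100.2 and 96.8 CPM in control replicates 1 to 5 and 119.6, 115, 131, 126 and 119 CPM in irradiated replicates 1 to 5. The groups did not overlap here either, although the gap was small, with irradiated replicate 2 just above control replicate 3. On the log2 scale TFE3 changed by 0.26 ± 0.04, adjusted p = 0.00172 (edgeR). The ratio of TFE3 to TFEB within a library, described after the values had been seen, was 3.47 ± 0.34 (SD, n = 5) in control and 8.02 ± 1.55 in irradiated samples and was higher in 5 of 5 pairs. In a list of 16 tested genes that control TFEB and its relatives, 4 were higher (all genes: 23.9%) and 3 lower (all genes: 22.7%). MITF, a related factor in this list, was at 0.31 ± 0.04, adjusted p = 0.000635 (edgeR, named after its values were seen).

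Among the cathepsins, the proteases of the lysosome, 3 were higher (CTSS, CTSB and CTSZ), 4 were lower (CTSD, CTSH, CTSL and CTSA) and CTSC did not pass the test. The median log2 fold change was -0.31, and over all genes tested 23.9% were higher and 22.7% lower. CTSS (cathepsin S; chr1:150730079-150765957, minus strand), a cysteine protease best known from antigen-presenting cells, was at 21.3, 29.0, 34.5, 20.1 and 21.3 CPM in control replicates 1 to 5 and 41.1, 42.6, 45.2, 57.1 and 50.05 CPM in irradiated replicates 1 to 5. All irradiated samples were above all controls, with the highest in irradiated replicate 4. CTSS had a log2 fold change of 0.93 ± 0.16, adjusted p = 0.00233 (edgeR). Of 10 leukocyte and macrophage markers 4 reached the minimum count, 2 were higher and none was lower, and their summed level was 0.823 to 1.31 CPM in control and 2.11 to 2.88 CPM in irradiated samples. TYROBP held 1 count and CD163 2 counts over all samples, while ITGAM rose from 0.0436 to 1.24 CPM, and the part of such cells in the CTSS value was not tested.

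CTSB (cathepsin B), an abundant cysteine protease, was at 290.2, 280.0, 393, 262 and 288 CPM in control replicates 1 to 5 and 376, 402, 477, 382 and 378 CPM in irradiated replicates 1 to 5. Control replicate 3 lay within the irradiated range, and the other 4 controls were below every irradiated sample. CTSB changed by a log2 value of 0.42 ± 0.05, adjusted p = 0.000589 (edgeR), higher in 5 of 5 pairs. CTSZ (cathepsin Z), a carboxypeptidase, was at 191, 219.8, 219.9, 212 and 223 CPM in control replicates 1 to 5 and 236, 243, 287, 251 and 245 CPM in irradiated replicates 1 to 5, so that the groups did not overlap, and its log2 fold change was 0.24 ± 0.05, adjusted p = 0.00615 (edgeR).

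CTSD (cathepsin D; chr11:1752752-1764573, minus strand), the main aspartic protease, was at 364, 379, 576, 299 and 336 CPM in control replicates 1 to 5 and 194, 276, 226, 175 and 181 CPM in irradiated replicates 1 to 5. Every irradiated sample was below every control, and the log2 fold change was -0.88 ± 0.11, adjusted p = 0.000607 (edgeR). Of its exon bases, 62.1% are shared with another annotated gene, where reads may not be counted, so the CTSD value is uncertain. CTSL (cathepsin L), a cysteine protease, was at 129, 134, 224, 92.4 and 119 CPM in control replicates 1 to 5 and 97.1, 106, 103, 81.0 and 85.1 CPM in irradiated replicates 1 to 5. Control replicate 3 stood far above the rest and control replicate 4 lay within the irradiated range. CTSL had a log2 fold change of -0.51 ± 0.12, adjusted p = 0.0113 (edgeR), lower in 5 of 5 pairs. Without replicate 3 the CTSL value was -0.35, adjusted p = 0.00226 (edgeR).

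CTSH (cathepsin H), an aminopeptidase, was at 62.2, 56.4, 97.8, 46.3 and 56.6 CPM in control replicates 1 to 5 and 42.5, 52.2, 43.6, 38.1 and 40.9 CPM in irradiated replicates 1 to 5. Irradiated replicate 2 was above control replicate 4, and the log2 fold change was -0.52 ± 0.14, adjusted p = 0.0163 (edgeR). The adjusted p was 0.0561 without replicate 1 and 0.0515 without replicate 5. Without replicate 3 the CTSH value was -0.35, adjusted p = 0.00777 (edgeR). CTSA (cathepsin A), a carboxypeptidase that also protects β-galactosidase and neuraminidase in a complex, was at 112, 113, 180.4, 84.8 and 96.6 CPM in control replicates 1 to 5 and 82.6, 116, 101, 76.3 and 79.5 CPM in irradiated replicates 1 to 5. The groups overlapped, irradiated replicate 2 being above 4 of the controls. On the log2 scale CTSA changed by -0.34 ± 0.11, adjusted p = 0.0404 (edgeR), and the adjusted p was 0.121, 0.055, 0.0605 and 0.0956 without replicate 1, 3, 4 or 5. Without replicate 3 the CTSA value was -0.21. CTSC (cathepsin C), a dipeptidyl peptidase, was at 189, 202, 249, 223 and 234 CPM in control replicates 1 to 5 and 226, 177, 174, 155 and 179 CPM in irradiated replicates 1 to 5. Irradiated replicate 1 was above 3 of the controls, and the log2 fold change was -0.27 ± 0.11, adjusted p = 0.0804 (edgeR), or -0.40 with an adjusted p of 0.00625 without replicate 1. Within libraries, the ratio of CTSB to CTSL was 2.27 ± 0.40 (SD, n = 5) in control and 4.30 ± 0.43 in irradiated samples and was higher in 5 of 5 pairs (a pair of genes chosen after their values were seen).

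**Figure D3:**
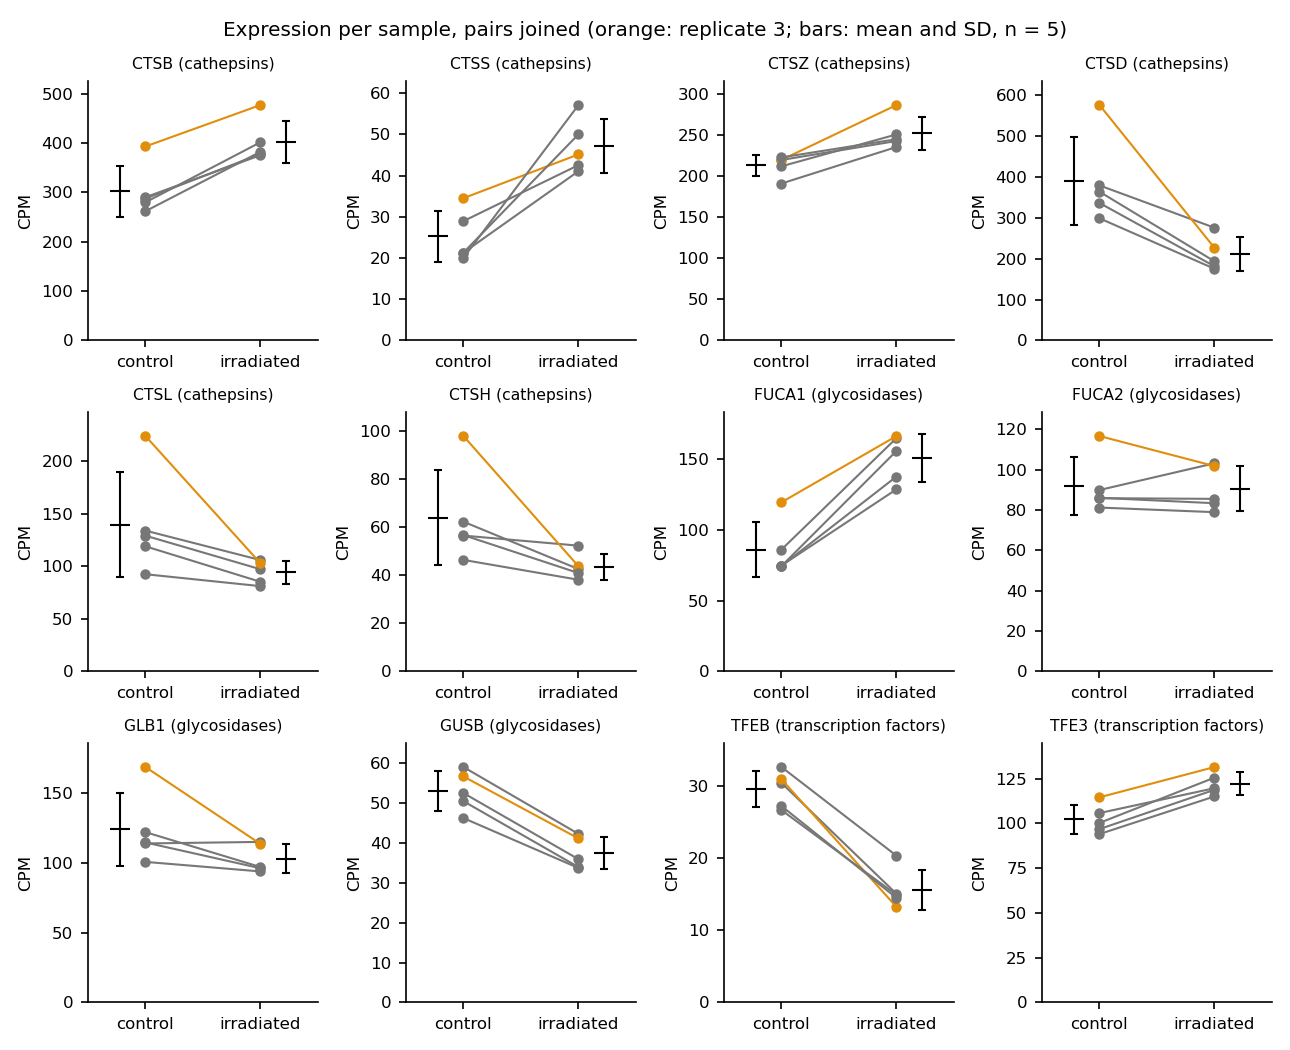
CPM per sample (y axis, from 0) for 12 genes in control and irradiated samples, with lines joining replicates of the same number, replicate 3 in orange, and bars for mean and SD (n = 5). TFEB fell and FUCA1 rose in every pair, and the control of replicate 3 is the highest control in most panels.

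Among the 12 glycosidases, which trim sugars from glycoproteins, glycolipids and glycosaminoglycans, 4 were higher (FUCA1, IDUA, NEU1 and MAN2B1), 2 were lower (GUSB and GLB1) and 6 did not pass the test. The median log2 fold change was -0.00, and over all genes tested 23.9% were higher and 22.7% lower. FUCA1 (chr1:23845077-23868290, minus strand), the lysosomal α-fucosidase, was at 74.8, 86.1, 119.5, 74.4 and 74.5 CPM in control replicates 1 to 5 and 129, 165, 166, 156 and 138 CPM in irradiated replicates 1 to 5. All irradiated samples were above all controls. FUCA1 had a log2 fold change of 0.83 ± 0.08, adjusted p = 0.00018 (edgeR), higher in 5 of 5 pairs. FUCA2, its secreted relative, was at 91.9 ± 14.2 CPM in control and 90.5 ± 11.1 CPM in irradiated samples (mean ± SD, n = 5 in each group), a log2 fold change of -0.02 ± 0.06, adjusted p = 0.814 (edgeR). The ratio of FUCA1 to FUCA2 within a library, described after the values had been seen, was 0.93 ± 0.07 (SD) in control and 1.67 ± 0.09 in irradiated samples.

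IDUA, the α-iduronidase of heparan and dermatan sulfate breakdown, was at 45.1, 34.4, 28.8, 23.5 and 20.8 CPM in control replicates 1 to 5 and 51.5, 53.8, 44.5, 34.0 and 31.3 CPM in irradiated replicates 1 to 5. The ranges overlapped widely while the irradiated sample was the higher in 5 of 5 pairs, and the log2 fold change was 0.52 ± 0.07, adjusted p = 0.000922 (edgeR). NEU1, a sialidase, was at 115, 109, 199, 93.4 and 108 CPM in control replicates 1 to 5 and 149, 166, 202, 139.5 and 148 CPM in irradiated replicates 1 to 5. Control replicate 3 was above 4 of the irradiated samples, and the other 4 controls were below them all. On the log2 scale NEU1 changed by 0.41 ± 0.08, adjusted p = 0.00571 (edgeR). Both IDUA and NEU1 lost the call without the replicate block (adjusted p = 0.0925 and 0.148, edgeR). MAN2B1, an α-mannosidase, had a log2 fold change of 0.17 ± 0.05, adjusted p = 0.0163 (edgeR), with 35.7% of its exon bases shared with other genes, and the adjusted p was 0.0731 without replicate 4 and 0.0576 without replicate 5.

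GUSB, the β-glucuronidase, was at 46.2, 59.0, 56.7, 50.5 and 52.5 CPM in control replicates 1 to 5 and 33.7, 42.3, 41.1, 33.9 and 35.9 CPM in irradiated replicates 1 to 5. Every irradiated sample was below every control, and the log2 fold change was -0.50 ± 0.04, adjusted p = 7.84e-05 (edgeR), lower in 5 of 5 pairs. GUSB has many pseudogene copies, of which GUSBP1 held 5045 counts against 45668 for GUSB, so reads may be split between them and the value is uncertain. GLB1 (chr3:32996609-33097202, minus strand), the gene of the β-galactosidase behind the senescence stain, was at 122, 114, 168, 101 and 114 CPM in control replicates 1 to 5 and 96.9, 115, 113, 93.8 and 96.0 CPM in irradiated replicates 1 to 5. The groups overlapped, irradiated replicate 2 being above control replicates 2, 4 and 5 and irradiated replicate 3 above control replicate 4. GLB1 had a log2 fold change of -0.25 ± 0.08, adjusted p = 0.0368 (edgeR), and the adjusted p was 0.112, 0.0649, 0.0544 and 0.105 without replicate 1, 3, 4 or 5. Without replicate 3 the GLB1 value was -0.16.

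The glycosidases that did not pass the test ran from -0.23 to 0.19 on the log2 scale. GAA, the acid α-glucosidase of glycogen breakdown, was at 117 ± 26.6 CPM in control and 99.6 ± 12.7 CPM in irradiated samples (mean ± SD, n = 5), and GLA, the α-galactosidase, at 25.2 ± 2.703 CPM in control and 28.9 ± 4.43 CPM in irradiated samples. MANBA, the β-mannosidase, was at 38.4 ± 8.75 CPM in control and 32.2 ± 2.85 CPM in irradiated samples. HEXA was at 16.3 ± 1.94 CPM in control and 16.3 ± 1.64 CPM in irradiated samples and NAGLU, which acts on heparan sulfate, at 49.3 ± 4.99 CPM in control and 49.0 ± 5.85 CPM in irradiated samples. GAA had a log2 fold change of -0.21 ± 0.09, adjusted p = 0.0875 over 5 pairs, of -0.28 (adjusted p = 0.0291) without replicate 2 and of -0.15, adjusted p = 0.223 without replicate 3 (edgeR). MANBA was at -0.23 ± 0.09, adjusted p = 0.0772 over 5 pairs, at -0.29 (adjusted p = 0.0418) without replicate 2 and at -0.12, adjusted p = 0.107 without replicate 3 (edgeR).

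Of the 4 sulfatases, which remove sulfate from glycosaminoglycans and sulfolipids, 3 were higher (IDS, ARSB and ARSA) and none was lower. Their median log2 fold change was 0.46, and over all genes tested 23.9% were higher and 22.7% lower. IDS, the iduronate sulfatase, was at 11.3, 13.6, 10.6, 11.9 and 11.3 CPM in control replicates 1 to 5 and 20.9, 17.3, 19.3, 19.7 and 20.2 CPM in irradiated replicates 1 to 5. The groups did not overlap, and the log2 fold change was 0.73 ± 0.09, adjusted p = 0.000451 (edgeR). Of the IDS exon bases, 90.7% are shared with another gene, which leaves the value uncertain. ARSB, which acts on dermatan and chondroitin sulfate, was at 27.9, 42.7, 37.2, 39.5 and 40.6 CPM in control replicates 1 to 5 and 51.5, 47.8, 56.6, 50.4 and 51.1 CPM in irradiated replicates 1 to 5, again without overlap, and its log2 fold change was 0.47 ± 0.10, adjusted p = 0.00627 (edgeR). ARSA, which acts on sulfatide, was at 34.8, 31.3, 37.1, 24.3 and 23.8 CPM in control replicates 1 to 5 and 41.6, 47.6, 47.2, 35.3 and 34.5 CPM in irradiated replicates 1 to 5. Control replicates 1 and 3 reached into the irradiated range. ARSA changed by a log2 value of 0.46 ± 0.06, adjusted p = 0.000743 (edgeR), higher in 5 of 5 pairs. SGSH, the heparan N-sulfatase, was at 85.0 ± 14.4 CPM in control and 73.5 ± 8.53 CPM in irradiated samples (mean ± SD, n = 5; -0.20 ± 0.09, adjusted p = 0.0996, edgeR) and moved to -0.28 (adjusted p = 0.0158) without replicate 2 and to -0.12, adjusted p = 0.249 without replicate 3. SUMF1, the enzyme that activates sulfatases, was not among the 47 and was singled out after its values were seen, and it was at 68.6 ± 8.82 CPM in control and 97.2 ± 4.07 CPM in irradiated samples (0.51 ± 0.07, adjusted p = 0.000914, edgeR).

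Among the 8 lipid and other hydrolases and their cofactors, LIPA was higher, PPT1 was lower and 6 did not pass the test. Their median log2 fold change was -0.08, and over all genes tested 23.9% were higher and 22.7% lower. LIPA, the acid lipase of cholesteryl esters and triglycerides, was at 32.6, 40.3, 40.7, 36.2 and 39.9 CPM in control replicates 1 to 5 and 53.4, 46.9, 59.1, 50.5 and 50.9 CPM in irradiated replicates 1 to 5. The groups did not overlap, and the log2 fold change was 0.46 ± 0.07, adjusted p = 0.00151 (edgeR). PPT1, a palmitoyl-protein thioesterase, was at 48.0, 69.3, 63.6, 57.8 and 61.2 CPM in control replicates 1 to 5 and 50.4, 59.1, 55.2, 51.0 and 52.7 CPM in irradiated replicates 1 to 5. Control replicate 1 was below every irradiated sample, and the log2 fold change was -0.15 ± 0.05, adjusted p = 0.0497 (edgeR), lower in 4 of 5 pairs and the adjusted p was between 0.0945 and 0.169 without replicate 2, 3, 4 or 5.

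PSAP, the saposin precursor, was at 1442 ± 255 CPM in control and 1636 ± 134 CPM in irradiated samples (mean ± SD, n = 5), and ASAH1, the acid ceramidase, at 155 ± 54.4 CPM in control and 176 ± 25.0 CPM in irradiated samples. Their log2 fold changes were 0.20 ± 0.08, adjusted p = 0.0681 and 0.23 ± 0.09, adjusted p = 0.0715 (edgeR). Without replicate 3 both were higher, at 0.27, adjusted p = 0.00606 for PSAP and 0.34, adjusted p = 0.00068 for ASAH1. SMPD1, the acid sphingomyelinase, was at 58.5 ± 13.6 CPM in control and 46.6 ± 5.62 CPM in irradiated samples, and TPP1, a tripeptidyl peptidase, at 65.5 ± 23.8 CPM in control and 48.5 ± 7.69 CPM in irradiated samples. NPC2, the soluble cholesterol carrier, was at 91.7 ± 22.6 CPM in control and 77.1 ± 8.12 CPM in irradiated samples, and ACP2, an acid phosphatase, at 44.7 ± 1.15 CPM in control and 44.4 ± 3.44 CPM in irradiated samples. TPP1, at -0.38 ± 0.15, adjusted p = 0.0733 over 5 pairs, was at -0.50 (adjusted p = 0.0292) without replicate 2 and -0.20, adjusted p = 0.111 without replicate 3 (edgeR). NPC2, at -0.23 ± 0.09, adjusted p = 0.0678, was at -0.28 (adjusted p = 0.0464) without replicate 2 and -0.12, adjusted p = 0.097 without replicate 3 (edgeR). SMPD1, at -0.31 ± 0.12, adjusted p = 0.0684, was at -0.18, adjusted p = 0.155 without replicate 3 (edgeR). With DESeq2 over 5 pairs SMPD1 passed as lower (-0.31, adjusted p = 0.0278).

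The 8 membrane proteins included 3 that were higher (LAPTM4A, LAMP2 and SCARB2) and 1 that was lower (MCOLN1). Their median log2 fold change was 0.13, and over all genes tested 23.9% were higher and 22.7% lower. LAPTM4A was at 465, 385, 521, 439 and 495 CPM in control replicates 1 to 5 and 592, 493, 649, 584 and 563 CPM in irradiated replicates 1 to 5. Irradiated replicate 2 was below control replicates 3 and 5, and the other 4 irradiated samples were above every control. LAPTM4A had a log2 fold change of 0.32 ± 0.05, adjusted p = 0.00148 (edgeR). LAMP2, a major glycoprotein of the lysosomal membrane, was at 178, 165, 243, 168 and 180.2 CPM in control replicates 1 to 5 and 228, 221, 240.5, 212 and 225 CPM in irradiated replicates 1 to 5. Control replicate 3 was above every irradiated sample and the other 4 controls were below them all. LAMP2 changed by a log2 value of 0.28 ± 0.07, adjusted p = 0.00986 (edgeR).

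SCARB2, the receptor that carries β-glucocerebrosidase to lysosomes, was at 168, 173, 226, 173 and 182 CPM in control replicates 1 to 5 and 212, 207, 235, 212 and 211 CPM in irradiated replicates 1 to 5. The same control stood above 4 of the irradiated samples, the other controls below all of them. SCARB2 had a log2 fold change of 0.23 ± 0.05, adjusted p = 0.00753 (edgeR). MCOLN1, a calcium channel of the lysosomal membrane, was at 25.0, 21.3, 29.1, 18.6 and 20.2 CPM in control replicates 1 to 5 and 20.8, 19.2, 22.6, 18.5 and 17.8 CPM in irradiated replicates 1 to 5. The ranges overlapped, and the log2 fold change was -0.20 ± 0.06, adjusted p = 0.031 (edgeR), lower in 5 of 5 pairs. Leaving out replicate 1, 2, 3 or 5 each ended the MCOLN1 call, with adjusted p between 0.056 and 0.0941 (edgeR). LAMP2 and SCARB2 lost theirs without the replicate block (adjusted p = 0.051 and 0.0514).

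NPC1, which exports cholesterol from the lysosome, was at 71.0, 79.1, 159, 82.9 and 74.2 CPM in control replicates 1 to 5 and 109, 99.6, 117, 108 and 102 CPM in irradiated replicates 1 to 5. Control replicate 3 was above every irradiated sample and the other 4 controls were below them all. The log2 fold change was 0.27 ± 0.14, adjusted p = 0.145 (edgeR) over 5 pairs and 0.45, adjusted p = 0.000698 without replicate 3. LAMP1 was at 483 ± 57.4 CPM in control and 493 ± 25.8 CPM in irradiated samples (mean ± SD, n = 5; 0.04 ± 0.06, adjusted p = 0.657, edgeR) and CD63 at 685 ± 173 CPM in control and 609.8 ± 55.0 CPM in irradiated samples (-0.14 ± 0.08, adjusted p = 0.193, edgeR), with CD63 at -0.05, adjusted p = 0.483 without replicate 3. CLN3, a membrane protein lost in a neuronal storage disease, held 491 counts over the 10 samples, the fewest of the 47. All of its exon bases are shared with another annotated gene, so its log2 fold change of -0.38 is uncertain.

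The 5 proton pump subunits examined here stayed within a narrow range, with a median log2 fold change of -0.05. Of these, 1 was higher (all genes: 23.9%) and 1 was lower (all genes: 22.7%), counts near those shares. The 18 other pump subunits tested ran more widely, from -1.99 (ATP6V0A4) to 0.42 (ATP6V0A1). Among them 5 were higher (all genes: 23.9%) and 2 lower (all genes: 22.7%). ATP6V1A, the catalytic subunit, was at 154, 184, 235, 159 and 172 CPM in control replicates 1 to 5 and 141, 169.6, 149, 142 and 142 CPM in irradiated replicates 1 to 5. Irradiated replicate 2 was above control replicates 1 and 4, and the other 4 irradiated samples were below every control. ATP6V1A had a log2 fold change of -0.27 ± 0.08, adjusted p = 0.0293 (edgeR), and of -0.17, adjusted p = 0.014 without replicate 3. ATP6V1B2, the other subunit of the nucleotide-binding ring, was at 191, 155, 216, 198 and 197 CPM in control replicates 1 to 5 and 217, 172, 220.5, 229 and 221 CPM in irradiated replicates 1 to 5. Irradiated replicate 2 was below 4 of the controls, and the other 4 irradiated samples were above all of them. On the log2 scale ATP6V1B2 changed by 0.15 ± 0.04, adjusted p = 0.0239 (edgeR).

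ATP6V0D1, which links the membrane and cytosolic sectors, was at 144, 125, 143, 131 and 139 CPM in control replicates 1 to 5 and 133, 131, 139, 134 and 125 CPM in irradiated replicates 1 to 5. ATP6V1H, a regulatory subunit, was at 69.4, 66.4, 89.7, 70.3 and 74.7 CPM in control replicates 1 to 5 and 66.01, 70.7, 77.8, 69.7 and 68.9 CPM in irradiated replicates 1 to 5. ATP6AP1, an accessory subunit, was at 184, 213, 229.5, 167 and 187 CPM in control replicates 1 to 5 and 177, 219, 208, 169 and 172 CPM in irradiated replicates 1 to 5. ATP6V1A no longer passed when replicate 4 or 5 was left out (adjusted p = 0.0569 and 0.0883), nor ATP6V1B2 without replicate 1, 4 or 5 (0.0676, 0.0966 and 0.0709). The groups overlapped for ATP6V0D1, ATP6V1H and ATP6AP1, with log2 fold changes of -0.04 ± 0.05, adjusted p = 0.516 for ATP6V0D1, -0.06 ± 0.05, adjusted p = 0.333 for ATP6V1H and -0.05 ± 0.04, adjusted p = 0.392 for ATP6AP1 (edgeR). The values of these 5 pump subunits thus lay between -0.27 and 0.15. Those of the glycosidases lay between -0.50 and 0.83 and those of the cathepsins between -0.88 and 0.93. The difference in spread between these groups was not tested.

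Control replicate 3 stood apart for the lysosomal genes. It also had the highest control sum in each list of other pathway genes described here. For autophagy genes this was 1613 CPM against 1015 to 1206 CPM, and for sorting genes 1804 CPM against 1519 to 1630 CPM. Among the 47 genes the same library was high as well. It was the highest control for 37 of the 47 genes, against 30.7% of all genes tested, and above the mean of the other 4 controls for 44 of 47, against 48.8% of all genes. Its median excess over the other controls was 0.39 on the log2 scale for the 47 genes and -0.008 for all genes. The excess was widest among the cathepsins (median 0.67) and the lipid and other hydrolases (0.56), lower for membrane proteins (0.41), glycosidases (0.38) and the proton pump (0.30), and lowest for the sulfatases (0.20) and transcription factors (0.15). For 30 of the 47 genes this control was above every irradiated sample, against 33.8% of all genes. Genes with TCACGTG in the promoter window had a median excess of 0.45 (8 genes, 0.08 to 0.90) and those without it 0.23 (26 genes, -0.16 to 1.05), ranges that overlapped widely, and the difference was not tested. Control replicates 1 and 3 were also low for 12 proliferation genes (mean log2 CPM 4.20 and 4.14, against 5.52 to 5.61 in the other controls and 2.91 to 3.50 in irradiated samples), and the part of this in the lysosomal values was not tested. Control replicate 1 had a median excess of -0.07 for the 47 genes (all genes: -0.011). It was above the mean of the other controls for 14 of the 47 (all genes: 47.9%). Irradiated replicate 3 was above the mean of the other irradiated samples for 42 of the 47 (all genes: 48.0%). Its median excess was 0.157 (all genes: -0.008). For replicate 4 the count was 5 in control (all genes: 49.7%) and 8 in irradiated samples (47.6%). For replicate 5 it was 10 (50.8%) and 7 (50.3%), and for replicate 2 it was 20 (51.6%) and 30 (52.7%).

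**Figure D4:**
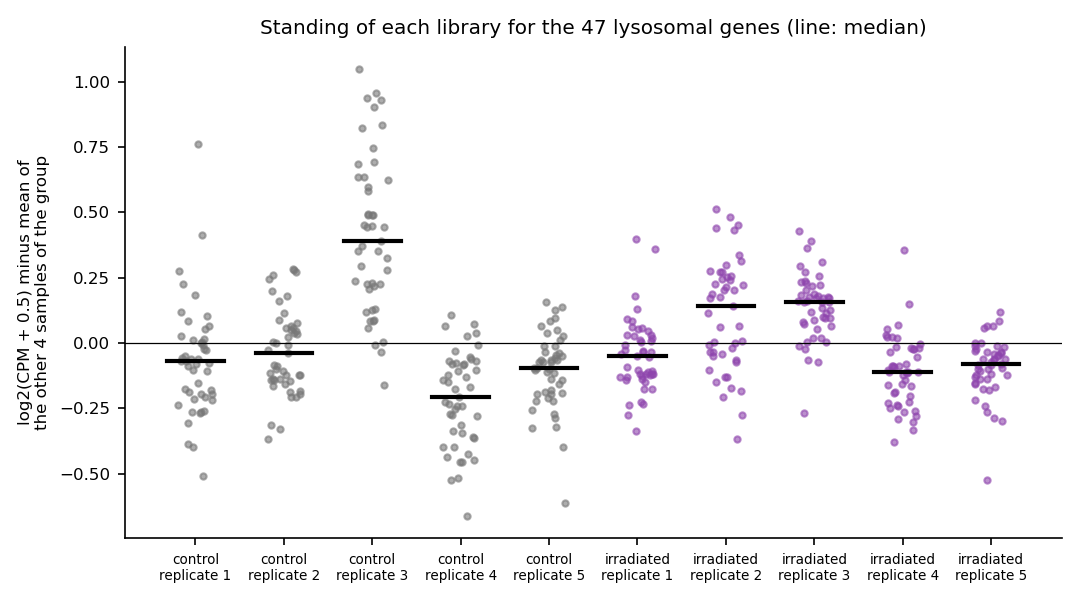
For each of the 10 libraries (x axis), log2(CPM + 0.5) minus the mean of the other 4 samples of its group (y axis) for the 47 genes, with a line at the median. Control replicate 3 has a median of 0.39, and the medians of the other 9 libraries lie between -0.21 and 0.16.

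Without replicate 3, 19 of the 47 genes were higher (all genes: 25.1%) and 6 were lower (all genes: 22.1%). NPC1, ASAH1 and PSAP passed the test as higher, and MCOLN1, CTSA, GLB1 and PPT1 no longer passed as lower. The cathepsins then stood at 3 higher and 3 lower, the glycosidases at 4 and 1, and the sulfatases at 3 and 0. TFEB (-0.86, adjusted p = 0.000121), CTSD (-0.75, adjusted p = 0.000395), CTSS (1.07, adjusted p = 0.00131) and FUCA1 (0.92, adjusted p = 7.14e-05) kept their direction and their call (edgeR). Without replicates 1 and 3 together, 19 genes were higher (all genes: 23.0%) and 8 lower (all genes: 24.1%).

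**Figure D5:**
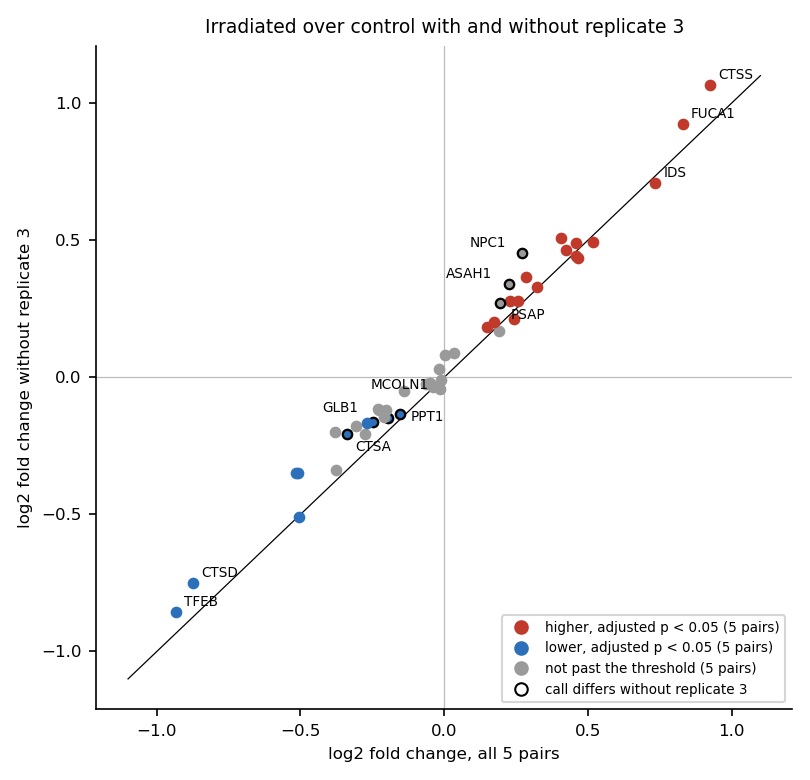
Log2 fold change with all 5 pairs (x axis) against that without replicate 3 (y axis) for the 47 genes, coloured by the call over 5 pairs, with black rims where the call differs and a line where both are equal. NPC1 moves from 0.27 to 0.45, while CTSS, FUCA1, CTSD and TFEB stay at the ends of both axes.

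Of other genes of the pathway, 119 of 123 listed were tested over all 5 pairs, control replicate 3 included. Among them 34 were higher (all genes: 23.9%) and 23 lower (all genes: 22.7%), with a median log2 fold change of 0.01. Other hydrolases and cofactors had 9 higher and 10 lower of 34, other membrane proteins 11 higher and 4 lower of 26, other proton pump subunits 5 higher and 2 lower of 18, sorting genes 1 higher and 2 lower of 12 and autophagy genes 4 higher and 2 lower of 13. Beyond 2-fold were TPCN1, a two-pore cation channel (109 ± 25.0 CPM in control and 251 ± 51.8 CPM in irradiated samples; 1.21 ± 0.05, adjusted p = 8.62e-06, edgeR), and ATP6V0A4, a pump subunit of acid-secreting cells (8.87 ± 5.31 CPM in control and 2.29 ± 1.94 CPM in irradiated samples; -1.99 ± 0.32, adjusted p = 0.00179, edgeR). LAPTM5, MCOLN2 and LAMP3 also rose beyond 2-fold (log2 2.27, 1.63 and 1.26, edgeR), from levels under 1 CPM. GNPTAB, which makes the mannose 6-phosphate tag, rose (0.68 ± 0.07, adjusted p = 0.000284) and SORT1, a sorting receptor, fell (-0.41 ± 0.05, adjusted p = 0.000701, edgeR), both named after their values were seen.

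The labels were checked on known genes. CDKN1A, the p53-induced cell cycle inhibitor, rose from 102 to 699 CPM and MKI67, a proliferation marker, fell from 162 to 24.0 CPM (group means). Of 3 genes of the irradiation response, CDKN1A and MDM2 were higher and GDF15 was not past the threshold (0.49 ± 0.28, adjusted p = 0.189, edgeR). Control replicate 3 stood apart here too, with CDKN1A at 208 CPM against 66.7 to 80.9 CPM in the other controls and GDF15 at 418 against 90.6 to 157 CPM. Of 14 tubule epithelial markers, 11 reached the minimum count, and LRP2, SLC34A1 and HNF4A, which define the mature proximal tubule, held 17, 86 and 12 counts over all samples. The 6 fibroblast markers summed to 15.9 to 23.5 CPM in control and 28.6 to 40.1 CPM in irradiated samples. Of this COL1A1 held 18.9 and 32.2 CPM and DCN 0.315 and 1.75 CPM (group means), while COL3A1 and LUM held 4 and 2 counts over all samples. The 5 endothelial markers summed to 1.32 to 2.45 and 4.18 to 6.09 CPM, with KDR at 2 counts. Total counts were 78081911 to 131555873 in control and 66269311 to 101594948 in irradiated samples.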

How the data were processed

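The authors trimmed the reads, aligned them to GRCh38 with STAR and deposited whole-number gene counts, not normalised, for 10 samples. The annotation release and use of strand are not given in the sources used here. The labels number the cell line upward over the samples, and all were taken as RPTEC/TERT1, the line the study's methods name. Of 61587 rows, 61369 matched a gene symbol.

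The quasi-likelihood test of edgeR 4.0.16 (R 4.3.3, TMM scaling) was run on the counts of genes that summed to 200 or more, with replicate number as a block as in the study's model, Benjamini-Hochberg adjustment and a threshold of 0.05. SE was derived from the log2 fold change and its F statistic. Samples of equal number were treated as pairs because of their shared number. Deviations from the group means correlated at 0.23 to 0.56 for equal numbers and at -0.44 to 0.44 for different ones. These ranges overlap, so the correlations do not settle the pairing for every replicate. No 2 replicates agreed within sampling noise, with a chi-square of 4.93 to 111 per gene. Shared exon bases were computed on Ensembl canonical transcripts from GENCODE, against genes on either strand.

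Per-sample values are given for every cathepsin, pump subunit and transcription factor and for called genes among the 3 largest changes of their role group in either direction. From the other lists, genes past the threshold and 2-fold are named. The genes and lists were chosen with earlier results of these data known. Alternatives were DESeq2 1.42.0, limma-voom (limma 3.58.1), other scalings and filters, no replicate block and each replicate left out. Figures used matplotlib 3.10.9 in Python 3.11.15.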

Additional observations from a re-analysis of the deposited data

Results flagged for a closer look

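Of 94 groups of 5 values examined (47 genes in control and in irradiated samples), 20 held a sample far from the other 4 by Dixon's criterion, where chance gives about 1 in 20 groups (4.7). Over all genes tested, 10.0% had such a sample among the controls and 6.68% among the irradiated samples, against 14 and 6 of the 47 genes.

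Control replicate 3 was the far sample in 14 of them, each time the highest (all genes: 5.26% high in this library). Among membrane proteins it stood at 584 CPM for LAMP1, 243 for LAMP2, 985 for CD63, 226 for SCARB2 and 159 for NPC1. Among the proteases and glycosidases it stood at 393 CPM for CTSB, 53.9 for MANBA, 199 for NEU1, 119.5 for FUCA1 and 117 for FUCA2. Among the lipid and other hydrolases it stood at 251 CPM for ASAH1, 81.8 for SMPD1, 107 for TPP1 and 131.5 for NPC2. The excess was widest for NPC1, where the other controls lay between 71.0 and 82.9 CPM, and for TPP1, where they lay between 48.6 and 63.3 CPM.

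Irradiated replicate 3 was the highest of its group for CD63 (707 CPM), SCARB2 (235) and CTSB (477). Irradiated replicate 2 was high for ATP6V1A (169.6 CPM) and TFEB (20.4) and low for ATP6V1B2 (172), against 217 to 229 CPM for ATP6V1B2 in the other irradiated samples.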

How the results depend on the processing

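The main fit called 16 genes higher (all genes: 23.9%) and 10 lower (all genes: 22.7%). Leaving out 1 replicate at a time gave 14 to 19 higher (all genes: 19.5% to 25.1%). It gave 4 to 13 lower (all genes: 16.1% to 22.1%). With no replicate block, 10 genes were higher (all genes: 19.2%) and 5 lower (all genes: 17.7%), and 11 of the 47 lost their call. Scaling by library size only gave 14 higher (all genes: 19.0%) and 20 lower (all genes: 31.0%). With this scaling 38.0% of all changed genes were higher, against 51.4%, and the median of all genes shifted by -0.076. Upper-quartile scaling gave 16 higher (all genes: 21.4%) and 14 lower (all genes: 26.3%). A minimum of 1 count gave 14 higher (all genes: 10.2%) and 17 lower (all genes: 11.2%), with 44263 genes tested. No gene called over 5 pairs reversed its direction under the 14 alternatives. Of the 16 higher genes, 10 kept their call under all 14 alternatives, and of the 10 lower genes 4 did. Of the 21 genes not past the threshold, 8 stayed so under all 14, and 13 passed under some. DESeq2 gave 18 higher (all genes: 22.5%) and 13 lower (all genes: 21.4%). With it PSAP and ASAH1 passed as higher, CTSC, SMPD1, TPP1 and NPC2 passed as lower, and PPT1 no longer passed. The cause of the differences was not tested. Depth does not limit these genes apart from CLN3, with 491 counts in all, and shared exon bases limit CLN3, IDS and CTSD.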
